A study of Mus musculus with 4 samples.

Results

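Genes of the smooth muscle contractile apparatus and of pericytes were followed in epididymal fat, the visceral fat depot attached to the epididymis of male mice. The set was a list of 35 named genes, and each was read from the probe set with the highest mean among those that the platform annotation gives to 1 symbol. Of these 35 genes, 34 had a value, out of 18820 genes with a value on the arrays. Pgm5, which codes for a protein of muscle adhesion plaques, lies only in probe sets shared with another symbol and was not reported. The 34 genes were grouped by role into 13 genes of the thin and thick filaments, 8 of intermediate filaments and adhesion, 7 of calcium handling, channels and receptors, 1 transcriptional regulator and 5 pericyte genes.

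There were 4 arrays in 3 groups, and every animal was on the C57BL/6J background. The wild type low-fat group (1 array) ate a diet with 10 kcal% fat, and the wild type high-fat group (1 array) ate a diet with 45 kcal% fat. The KO group (2 arrays, called KO array 1 and KO array 2) was CD1d-/-, after 10 to 12 generations of backcrossing, and ate the 10 kcal% fat diet. Cd1d codes for the lipid-presenting molecule that natural killer T cells recognise. All mice ate chow up to an age of 10 to 11 weeks and then their diet for 18 to 19 weeks, and the wild type mice are described as 8 weeks old when obtained from a vendor. Each array held RNA pooled from 4 to 6 mice, so the spread between animals was not measured. Whether the 2 KO arrays came from separate pools is not stated in the labels, and the difference between them may be technical.

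Levels are log2 of the deposited intensity, and the median over all probe sets of an array lay between 5.68 and 5.71. Levels of different genes come from different probes and were not ranked against each other. Sums of linear intensity over a list are weighted towards its brightest probe sets and are read across arrays only. Cd1d1, the targeted gene, was at 11.80 on both wild type arrays and at 3.74 and 3.98 on the KO arrays, a difference of −7.95 (SE 0.32, limma adjusted p = 0.00646). Over all 18820 genes the correlation between the KO arrays was 0.977 (Pearson's r, across genes of 2 arrays), and KO arrays 1 and 2 correlated with wild type low-fat at 0.985 and 0.984 and with wild type high-fat at 0.973 and 0.991. Since members differed widely between the KO arrays, results are given for each of them. The comparisons of KO array 1, KO array 2 and the high-fat array with wild type low-fat all share that 1 low-fat array.

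Smooth muscle cells of the vessel wall and of ducts contract when calcium-bound calmodulin switches on myosin light chain kinase, which lets smooth muscle myosin pull on thin filaments of smooth muscle actins, tropomyosin, calponin and caldesmon. Many of these genes are driven by serum response factor, which binds the CArG box in their control regions together with the coactivator myocardin. Pericytes are the contractile cells that wrap capillaries. In fat, smooth muscle actin and platelet-derived growth factor receptor beta also mark mural cells among which adipocyte precursors are found.

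For 7 members, 6 of them thin and thick filament genes, the KO arrays lay on opposite sides of the wild type. These genes were at least 1.5-fold higher on KO array 1 and at least 1.5-fold lower on KO array 2 than on the low-fat wild type array: Pcp4, Cnn1, Actg2, Tpm2, Tagln, Myl9 and Myh11. Among all 11292 genes that passed a filter on low levels, 40 genes did this (0.354%), and the 28 members that passed it held 7 of them. The filter was a mean level of at least 5.45 over the 4 arrays. Chrm3 (mean 5.59) and Lmod1 (5.64) lay just inside it, P2rx1 (4.98) lay just outside, and Chrm3 passed through KO array 1 alone. The other members under it were Itga8, Kcnmb1, Pln, Casq2 and Myocd, each under the array median on all 4 arrays. The pericyte genes Rgs5, Pdgfrb, Cspg4, Notch3 and Mcam, and the widely used marker Acta2, did not show this pattern.

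**Figure D1:**
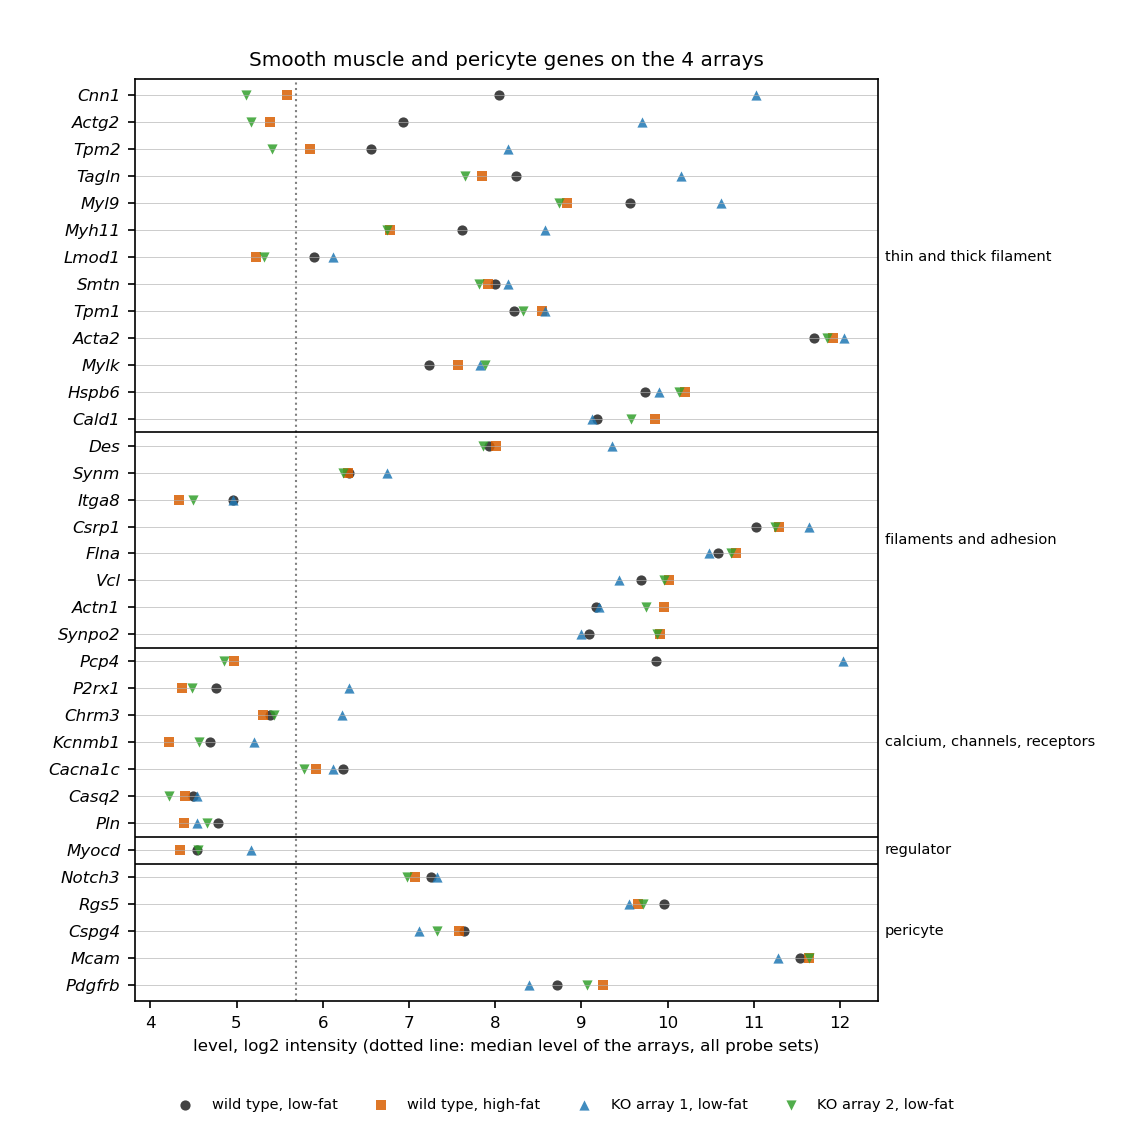
Level (log2 intensity, horizontal axis) of the 34 genes with a value on each of the 4 arrays, grouped by role, with 1 symbol per array and a dotted line at the median level of the arrays. Cnn1, Actg2, Tpm2, Tagln, Myl9, Myh11 and Pcp4 spread widely, with KO array 1 highest and KO array 2 lowest, while the 5 pericyte genes each span at most 0.87 (Pdgfrb).

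Pcp4 (probe set 10437205), which codes for a small protein that binds calmodulin and modulates its calcium binding, had a level of 9.86 on wild type low-fat, 4.97 on high-fat, and 12.04 and 4.86 on KO arrays 1 and 2. It was thus high on 2 arrays and under the array median on the other 2. The difference between the KO arrays was −7.18, or 145-fold. This fold, like those given below as at least a value, was taken as a lower bound because the lower level is under the median. No detection limit was measured, so that bound is an assumption. Among the 11292 tested genes ordered from the lowest difference, Pcp4 had rank 1. Its mean over the KO arrays was 8.45 ± 5.08 (SD, n = 2), and the genotype difference was −1.42 (SE 2.64, limma adjusted p = 1).

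Cnn1 (probe set 10583809), calponin 1, an actin-binding protein of differentiated smooth muscle, was at 8.05 on wild type low-fat, 5.59 on high-fat, and 11.03 and 5.12 on KO arrays 1 and 2. Its rise on KO array 1 over the wild type low-fat array, 2.98, had rank 1 from the highest among the tested genes. The KO arrays differed 60.2-fold at least, with rank 3 from the lowest difference. The wild type low-fat level fell between the KO arrays, so the KO mean of 8.07 ± 4.18 (SD, n = 2) left a genotype difference of 0.02 (SE 2.18).

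Actg2 (probe set 10545707) codes for the gamma smooth muscle actin, typical of visceral smooth muscle such as that of gut and ducts. Its level was 6.93 on wild type low-fat, 5.39 on high-fat, and 9.70 and 5.17 on KO arrays 1 and 2. The KO arrays differed at least 23.0-fold (rank 6). Actin genes are close in sequence, and how far their probes share signal is not known from the files. Acta2 (probe set 10467124), the alpha smooth muscle actin of vessel walls and myofibroblasts, was at 11.71, 11.92, 12.04 and 11.85 in the same order of arrays. All 4 levels of Acta2 lay within 0.34 of each other, and the KO arrays differed by −0.20.

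Tpm2 (probe set 10512499), beta-tropomyosin of the thin filament, was at 6.56 on wild type low-fat, 5.85 on high-fat, and 8.15 and 5.41 on KO arrays 1 and 2, a difference between the KO arrays of at least 6.65-fold (rank 21). Tpm1, the alpha-tropomyosin gene, which is used in many cell types, was at 8.22, 8.54, 8.58 and 8.32 in the same order. The tropomyosin genes therefore moved unequally: Tpm1 differed by −0.26 between the KO arrays and Tpm2 by −2.73.

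Tagln (probe set 10593123), transgelin or SM22, an actin-bundling protein of early smooth muscle differentiation, was at 8.25 on wild type low-fat, 7.85 on high-fat, and 10.16 and 7.65 on KO arrays 1 and 2. Its KO arrays differed 5.67-fold (rank 27). Most of its spread lay between KO array 1 and the other 3 arrays, which lay between 7.65 and 8.25.

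The myosin genes of smooth muscle came next. Myl9 (probe set 10477920), the regulatory light chain that myosin light chain kinase acts on, was at 9.57 on wild type low-fat, 8.84 on high-fat, and 10.62 and 8.74 on KO arrays 1 and 2. Myh11 (probe set 10437885), the smooth muscle myosin heavy chain, was at 7.62, 6.78, 8.58 and 6.75 in the same order. Both genes had the order KO array 1, wild type low-fat, wild type high-fat, KO array 2 from high to low. The KO arrays differed 3.69-fold for Myl9 (rank 39) and 3.57-fold for Myh11 (rank 44). Mylk, the kinase itself, was at 7.23 on wild type low-fat, 7.57 on high-fat, and 7.83 and 7.89 on KO arrays 1 and 2. Mylk was the one tested member at least 1.5-fold higher on both KO arrays (0.584% of tested genes were), with a difference of 0.62 (SE 0.31, limma unadjusted p = 0.0916, adjusted p = 1).

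The remaining thin filament genes varied by under 2-fold over the arrays. Lmod1, leiomodin 1, which nucleates actin filaments in smooth muscle, was at 5.90 on wild type low-fat, 5.22 on high-fat, and 6.11 and 5.32 on KO arrays 1 and 2. The levels of Lmod1 on the high-fat array and KO array 2 were under the array median. Smtn (smoothelin) differed by −0.34 between the KO arrays, Hspb6 (a small heat shock protein that relaxes smooth muscle) by 0.23 and Cald1 (caldesmon) by 0.45. Over the 13 genes of this group the median difference from wild type low-fat was 0.59 for KO array 1 against −0.58 for KO array 2.

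For the 4 matched genes among the 7 above, and for Acta2 and Vcl as members that did not part in this way, the sequence before the start site shows which of them carry a CArG box there. RefSeq promoters (GRCm38.p6) were matched for 30 of the 35 genes, and Actg2, Tagln, Myh11, Myocd and Pdgfrb had no entry. The 250 bases before the start site are given 5′ to 3′ for Pcp4 (chr16:96467356-96467605, plus strand), Cnn1 (chr9:22099003-22099252, plus strand), Tpm2 (chr4:43523555-43523804, minus strand), Myl9 (chr2:156775214-156775463, plus strand), Acta2 (chr19:34255374-34255623, minus strand) and Vcl (chr14:20929148-20929397, plus strand), with capitals marking matches to the CArG box, allowing at most 1 C or G in its A/T core:
Pcp4: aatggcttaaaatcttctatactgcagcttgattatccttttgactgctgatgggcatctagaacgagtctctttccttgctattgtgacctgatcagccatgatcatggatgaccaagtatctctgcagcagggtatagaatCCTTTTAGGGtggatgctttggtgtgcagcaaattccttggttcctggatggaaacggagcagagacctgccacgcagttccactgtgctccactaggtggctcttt
Cnn1: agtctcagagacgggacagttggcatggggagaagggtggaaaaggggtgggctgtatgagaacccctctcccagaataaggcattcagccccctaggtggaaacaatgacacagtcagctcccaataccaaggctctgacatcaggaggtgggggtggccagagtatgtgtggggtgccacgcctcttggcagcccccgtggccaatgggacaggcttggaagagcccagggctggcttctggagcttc
Tpm2: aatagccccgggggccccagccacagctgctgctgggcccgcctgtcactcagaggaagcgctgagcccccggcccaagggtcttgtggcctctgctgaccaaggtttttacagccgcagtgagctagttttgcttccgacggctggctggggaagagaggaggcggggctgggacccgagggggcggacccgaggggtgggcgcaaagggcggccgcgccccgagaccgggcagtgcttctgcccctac
Myl9: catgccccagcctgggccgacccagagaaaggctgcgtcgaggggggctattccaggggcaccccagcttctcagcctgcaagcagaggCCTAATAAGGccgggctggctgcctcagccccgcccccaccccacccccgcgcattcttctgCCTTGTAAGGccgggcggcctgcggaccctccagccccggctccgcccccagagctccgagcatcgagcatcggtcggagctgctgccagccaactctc
Acta2: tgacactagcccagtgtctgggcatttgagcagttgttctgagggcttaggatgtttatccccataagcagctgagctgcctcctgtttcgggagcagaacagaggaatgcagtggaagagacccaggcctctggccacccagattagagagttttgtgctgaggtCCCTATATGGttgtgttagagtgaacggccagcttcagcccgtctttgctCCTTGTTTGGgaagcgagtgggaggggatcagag
Vcl: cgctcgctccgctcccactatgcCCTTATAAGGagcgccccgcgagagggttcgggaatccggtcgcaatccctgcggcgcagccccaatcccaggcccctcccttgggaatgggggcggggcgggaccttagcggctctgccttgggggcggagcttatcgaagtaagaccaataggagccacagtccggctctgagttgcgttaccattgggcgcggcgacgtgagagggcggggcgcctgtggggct

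The match in Pcp4 began 107 bases before the start site and had 1 core mismatch. Myl9 had an exact match 161 bases before its start and a match with 1 mismatch at 99 bases. Acta2, whose level was nearly the same on all arrays, had matches with 1 mismatch at 84 and 34 bases, Vcl had an exact match at 227 bases, and Cnn1 and Tpm2 had none in this window. An exact CArG box lay in the window of 2 of 30 members, Myl9 and Vcl, and of 1.62% of 27025 genes. With 1 core mismatch allowed, which includes the exact matches, it lay in 7 of 30 members (Acta2, Synm, Myl9, Vcl, Hspb6, Pcp4 and Cacna1c) and in 9.78% of genes. The MCAT motif, CATTCC on either strand, which overlapped none of the marked matches, lay in 8 of 30 members (Acta2, Mylk, Smtn, Lmod1, Tpm1, Cald1, Vcl and Flna) and in 14.4% of genes. These are matches of letters, not measured binding, and members with a match were found both among the genes that parted between the KO arrays and among those that did not.

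Among the genes of intermediate filaments and adhesion, Des stood out. Des (probe set 10347583), desmin, the intermediate filament protein of muscle, was at 7.93 on wild type low-fat, 8.00 on high-fat, and 9.35 and 7.86 on KO arrays 1 and 2. KO array 1 alone was high, 2.82-fold above KO array 2 (rank 69), and the other 3 arrays lay between 7.86 and 8.00. The genotype difference for Des was 0.68 (SE 0.63, limma adjusted p = 1). Synm (synemin, a partner of desmin) was at 6.30, 6.30, 6.75 and 6.24 in the same order, and Csrp1 (a LIM protein of smooth muscle) at 11.02, 11.29, 11.64 and 11.25. Both were highest on KO array 1, by less than for Des.

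Several adhesion genes ran the other way. Synpo2, an actin-bundling protein of muscle Z-discs also called myopodin, was at 9.09 on wild type low-fat, 9.92 on high-fat, and 9.0018 and 9.88 on KO arrays 1 and 2. It was thus higher on the high-fat array and KO array 2, by 0.83 and 0.78 over wild type low-fat, and 1.83-fold higher on KO array 2 than on KO array 1. Actn1 (alpha-actinin 1, which crosslinks actin at adhesions) was at 9.17, 9.96, 9.20 and 9.75, and Vcl (vinculin, of focal adhesions) at 9.70, 10.02, 9.44 and 9.96. Flna (filamin A) differed by 0.25 between the KO arrays. Actn1, Vcl, Flna and Synpo2 were each higher on both the high-fat array and KO array 2 than on the other 2 arrays, while Itga8 (integrin alpha 8) was under the array median throughout.

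**Figure D2:**
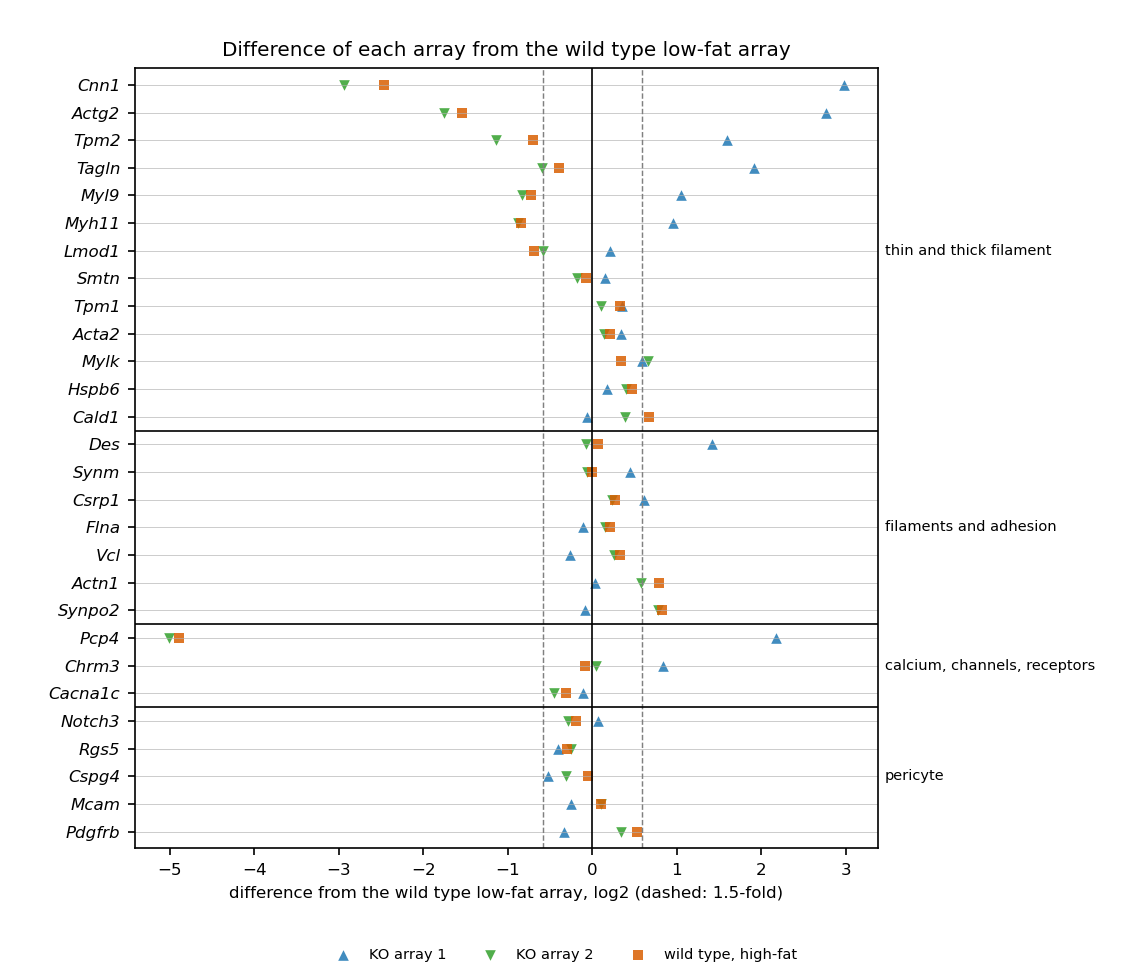
Difference in log2 level from the wild type low-fat array (horizontal axis) for KO array 1, KO array 2 and the wild type high-fat array, for the 28 tested genes by role, with dashed lines at 1.5-fold. For Cnn1, KO array 1 lies at 2.98 while KO array 2 and the high-fat array lie at −2.94 and −2.46, and the 5 pericyte genes lie inside the dashed lines on all 3 arrays.

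Receptors and channels were mostly dim in this tissue. P2rx1, the ATP-gated channel through which sympathetic nerves excite smooth muscle, was at 4.76 on wild type low-fat, 4.37 on high-fat, and 6.30 and 4.48 on KO arrays 1 and 2. Chrm3, the muscarinic receptor that contracts smooth muscle, was at 5.38, 5.30, 6.22 and 5.43 in the same order. Both were above the array median on KO array 1 alone, at least 3.55-fold above KO array 2 for P2rx1. Cacna1c, the pore of the L-type calcium channel, was at 6.23, 5.92, 6.12 and 5.78, a spread under 1.5-fold. Myocd, the myocardin gene, was at 4.55, 4.35, 5.17 and 4.55, under the array median on all 4 arrays. Kcnmb1 (a subunit of the calcium-activated potassium channel), Pln (phospholamban) and Casq2 (calsequestrin 2) were also under it on every array, which at these signals leaves their changes undetermined.

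The pericyte genes were steadier. Rgs5, a regulator of G protein signalling that marks pericytes, was at 9.96 on wild type low-fat, 9.66 on high-fat, and 9.55 and 9.71 on KO arrays 1 and 2. Pdgfrb, the receptor by which pericytes are recruited, was at 8.72, 9.26, 8.39 and 9.07 in the same order. Pdgfrb was highest on the high-fat array and lowest on KO array 1, and these 2 levels lay 0.87 apart, past 1.5-fold. Its difference of 0.68 between the KO arrays was the one past 1.5-fold among these 5 genes. That difference was 0.49 with the arrays centred and 0.54 after quantile normalization, both under 1.5-fold. Cspg4 (the NG2 proteoglycan) was at 7.64, 7.59, 7.12 and 7.33, Notch3 (the Notch receptor of mural cells) at 7.26, 7.07, 7.33 and 6.97, and Mcam (CD146, on mural and endothelial cells) at 11.53, 11.64, 11.29 and 11.64. None of the 5 differed by 1.5-fold from wild type low-fat on either KO array or on the high-fat array.

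For genotype, which compared CD1d-/- with wild type on the same low-fat diet, 0 of 28 tested members passed limma's adjusted p of 0.05 (0.0443% of tested genes did) and 0 passed an unadjusted p of 0.05 (0.815% did). Against wild type low-fat, KO array 1 had 11 members at least 1.5-fold higher (1.93% of tested genes were), the 7 above with Mylk, Des, Csrp1 and Chrm3, and 0 lower (5.02%). Chrm3 adds no weight to this count, as it passed the filter through KO array 1 alone. KO array 2 had 2 higher (5.54%), Mylk and Synpo2, and 7 lower (4.6%), and no member was lower on both KO arrays (0.77%). The members' median difference was 0.27 for KO array 1 against −0.07 for KO array 2, beside −0.17 and −0.02 over all tested genes. With 1 residual degree of freedom, which comes from the KO pair, the standard errors of the members ran from 0.31 to 2.64, and the lone wild type array was assumed to vary like that pair.

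Between the KO arrays, 10 tested members were lower by 1.5-fold or more on KO array 2 (4.45% of tested genes were): the 7 above with Lmod1, Des and Chrm3. Since Chrm3 passed the filter through KO array 1 alone, it adds no weight here or among the members highest on KO array 1. Synpo2 and Pdgfrb, 2 members, were higher (14.8% of tested genes were). The median difference was −0.34 over the members and 0.14 over all tested genes. Over the 34 members without the filter, 13 were lower and 2 were higher, beside 4% and 9.69% of all 18820 genes. The 13 include Kcnmb1 and Myocd, which were under the array median on every array. KO array 1 was the highest of the 4 arrays for 16 of the 28 tested members (14.4% of tested genes), and 11 had the order KO array 1, wild type low-fat, then both other arrays (9.84%).

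**Figure D3:**
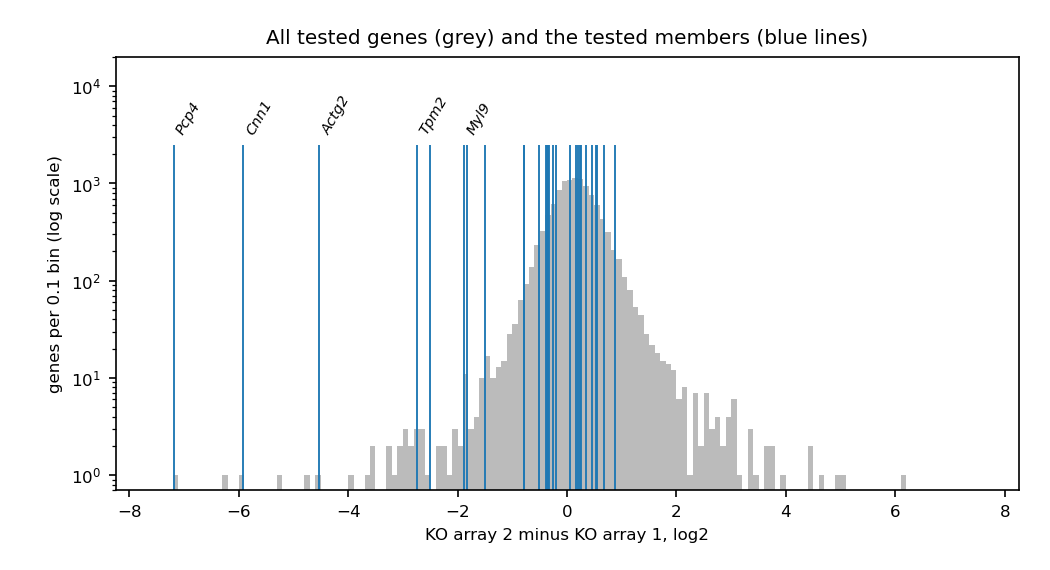
Distribution of the log2 difference between the KO arrays (array 2 minus array 1, horizontal axis) over the 11292 tested genes in grey, on a log count axis, with a blue line for each of the 28 tested members. Pcp4 at −7.18, Cnn1 at −5.91 and Actg2 at −4.53 lie in the far lower tail, and the remaining lines run from −2.73 to 0.87.

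The diet comparison had 1 array per group and no test. On the high-fat array 7 members were at least 1.5-fold lower than on the low-fat array (3.82% of tested genes were): Pcp4 by −4.89 or at least 29.7-fold, Cnn1 by −2.46, Actg2 by −1.54, Myh11 by −0.84, Myl9 by −0.73, Tpm2 by −0.70 and Lmod1 by −0.68. The high-fat levels of Pcp4, Cnn1, Actg2 and Lmod1 were under the array median, so their differences were taken as lower bounds in size. Cald1, Synpo2 and Actn1, 3 members, were higher (7.72% of tested genes were), by 0.67, 0.83 and 0.79. With its probe sets averaged, Actn1 was higher by 0.43 and no longer past 1.5-fold. The median over the members was −0.03, beside 0.05 over all tested genes, and −0.09 without the filter and −0.10 with the arrays centred. Acta2 differed by 0.21, Des by 0.07 and Rgs5 by −0.30, each under 1.5-fold.

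KO array 2 was also set beside the wild type high-fat array. No tested member was at least 1.5-fold higher (1.57% of tested genes were) or lower (1.31%) on KO array 2 than on the array of wild type mice fed the high-fat diet. The 28 differences ran from −0.47 to 0.32, with a median of −0.10 beside −0.08 over all tested genes. Both counts and the median are near those of all tested genes, and these arrays differ in both genotype and diet.

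Further genes of the same pathway were examined for the difference between the KO arrays. Of 33 tested genes of contraction and adhesion, 1 was at least 1.5-fold lower on KO array 2 and 5 were higher, shares near the 4.45% and 14.8% of all tested genes. Their median was 0.31. The lowest were Pdlim3, a PDZ and LIM protein of muscle Z-discs, at 6.95 on wild type low-fat, 6.21 on high-fat, and 8.59 and 6.33 on KO arrays 1 and 2, and Ppp1r14a, an inhibitor of myosin phosphatase, with a difference of −0.44. Pdlim3 was the one gene of that list with the KO arrays on opposite sides of wild type low-fat by 1.5-fold each. Among the cell type markers below, Pax8 (duct epithelium), Krt19 (from the mesothelial list) and Ckm (skeletal muscle) did this too, in the same direction. The other tested genes of the mesothelial list were higher on KO array 2 than on KO array 1, unlike Krt19. Of the contraction and adhesion genes, the highest were the integrin genes Itga7 (1.17) and Itga5 (0.84). Of 11 tested genes of calcium handling and receptors, 1 was higher and 0 lower. That gene was Oxtr, the oxytocin receptor, at 7.49, 10.05, 7.65 and 10.24 in the same order of arrays, with Ednrb next at 0.58 and Pde5a (−0.34) and Mrvi1 (−0.31) lowest. Oxtr was thus high on the arrays where Pcp4 and Cnn1 were low.

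Among transcription and growth factor genes of smooth muscle, 3 of 15 tested were higher on KO array 2 and 0 lower, beside 14.8% and 4.45% of all tested genes. Mef2c (0.93) and Tgfb1 (0.78) were highest and Heyl (−0.47) and Elk1 (−0.21) lowest. Srf, serum response factor, was at 8.44 on wild type low-fat, 8.43 on high-fat, and 8.12 and 8.09 on KO arrays 1 and 2. Its levels on the KO arrays differed by −0.03. Of 10 further pericyte genes tested, 1 was higher (Anpep, aminopeptidase N, 1.82, which fibroblasts and myeloid cells also express) and 0 lower, with Angpt1 at 0.39, Cox4i2 at −0.39 and Ndufa4l2 at −0.33. In these lists 0 genes passed limma's adjusted p of 0.05 for genotype (0.0443% of tested genes did).

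Markers of other cell types that this sample could hold also differed between the arrays. In bulk tissue, fewer cells of a type and less RNA per cell cannot be told apart. All 6 tested duct epithelium genes fell short of KO array 1 by 1.5-fold or more on KO array 2 (4.45% of tested genes did), among them Pax8 (−2.08), Krt18 (−1.12), Cdh1 (−0.89) and Epcam (−0.86). Their summed intensity was 1070 on wild type low-fat, 408 on high-fat, and 1827 and 798 on KO arrays 1 and 2, so the order of the upper 2 arrays was that of Cnn1 and Pcp4 but the lowest array was the high-fat one. The summed intensity of the 34 members, weighted towards bright genes such as Acta2 and Mcam, was 19110, 20590, 28650 and 19610 in the same order. The part of duct tissue in the members' differences was not tested.

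The secretory genes of epididymis epithelium had another order, with a summed intensity of 18730 on wild type low-fat, 341 on high-fat, and 1226 and 3008 on KO arrays 1 and 2 over the 19 genes with a value. Of 13 tested, 9 were higher and 2 lower on KO array 2 than on KO array 1, beside 14.8% and 4.45% of all tested genes. Adam7 (5.04) and Cuzd1 (4.66) were highest and Defb30 (−3.04) and Spink11 (−2.36) lowest. For genotype, 4 of the 13 (Spint4, Spint5, Lcn5 and Epp13) were lower at limma's adjusted p of 0.05 (0.0443% of tested genes passed). With high-fat feeding, wild type levels of these genes differed from wild type low-fat by −8.2, −6.5, −7.0 and −6.8, in that order. These calls thus rest on the level of 1 low-fat array, with the spread taken from the KO pair. Spint4, Spint5 and Lcn5 passed the filter through that low-fat array alone, so their calls add no weight. Without the filter, 0 genes of the whole table were called. An effect of genotype apart from that array was not tested. Of the 19, 5 were under the array median on all arrays. On KO array 1 the 13 tested genes were below wild type low-fat by unequal amounts, from −1.36 for Defb30 to −8.10 for Spint4. Of all tested genes, 5.02% were at least 1.5-fold lower there, but this share is not a like background for the 13 genes. For Spint4, Spint5 and Lcn5, which passed the filter through wild type low-fat alone, a lower level on KO array 1 was fixed by the filter. The part of epididymis tissue in the members' differences was not tested.

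Genes of the endothelium, which lines the vessels that pericytes and smooth muscle wrap, had a similar summed intensity on all arrays. Over 12 genes it was 5839 on wild type low-fat, 5743 on high-fat, and 5873 and 5821 on KO arrays 1 and 2. Between the KO arrays 0 of 12 differed 1.5-fold, beside 14.8% of tested genes higher and 4.45% lower on KO array 2. Kdr lay just inside that threshold, at −0.5825 against 0.585. The differences of the endothelial genes ran from −0.58 for Kdr and −0.16 for Tie1 to 0.11 for Eng and 0.15 for Vwf. Adipocyte genes, the defining markers of the labelled tissue, had levels from 11.4 to 13.3 and a summed intensity of 55360, 57980, 55470 and 58350 in the same order. Of these 8 genes, Lep alone (0.97) was past 1.5-fold between the KO arrays, with Plin1 at 0.23, Fabp4 at −0.12 and Adipoq at −0.16.

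Of all tested genes, 14.8% were at least 1.5-fold higher on KO array 2 than on KO array 1 and 4.45% lower. Between these arrays macrophage genes ran opposite to Pcp4, Cnn1, Actg2, Tpm2, Tagln, Myl9 and Myh11, while members such as Synpo2 and Vcl ran the same way. Of 8 macrophage genes tested, 7 were higher by that fold, among them Itgax (3.0039) and Cd68 (1.75). The macrophage genes that differed least were Cd14 (0.11) and Lyz2 (0.87). The summed intensity of the macrophage genes was 7908 on wild type low-fat, 14990 on high-fat, and 6223 and 13340 on KO arrays 1 and 2. Fibroblast genes were higher in 5 of 10 and lower in 0, from 0.09 for Pi16 and 0.29 for Dcn to 1.0009 for Col3a1 and 1.54 for Lum, with sums of 20990, 23720, 16320 and 22860. Mesothelial genes were higher in 5 of 8, with Gpm6a (1.55) and Upk1b (1.27) highest, and lower in 1 (Krt19, −1.47, with Bnc1 next at 0.39), with sums of 2089, 1830, 1268 and 2001. Macrophage, fibroblast and mesothelial sums were thus lowest on KO array 1. Skeletal muscle genes were lower in 2 of 6 tested (Ckm −1.93, Acta1 −1.02) and higher in 1 (Pvalb, 1.86, with Actn3 next at 0.38), with 7 of the list of 14 under the array median on all arrays and sums of 1540, 1109, 1627 and 984.7. Genes of the heart (2 tested, Actc1 −0.29 and Tnnt2 0.08), of nerve (1 tested, Uchl1 0.17) and of interstitial cells of Cajal (3 tested, Ano1 −0.30, Kit −0.24 and Etv1 0.05) had 0 past 1.5-fold. Cells of Cajal, the pacemakers of visceral muscle, had sums of 414.3, 353.2, 411.9 and 367.6. The part of these cell types in the members' differences was not tested.

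**Figure D4:**
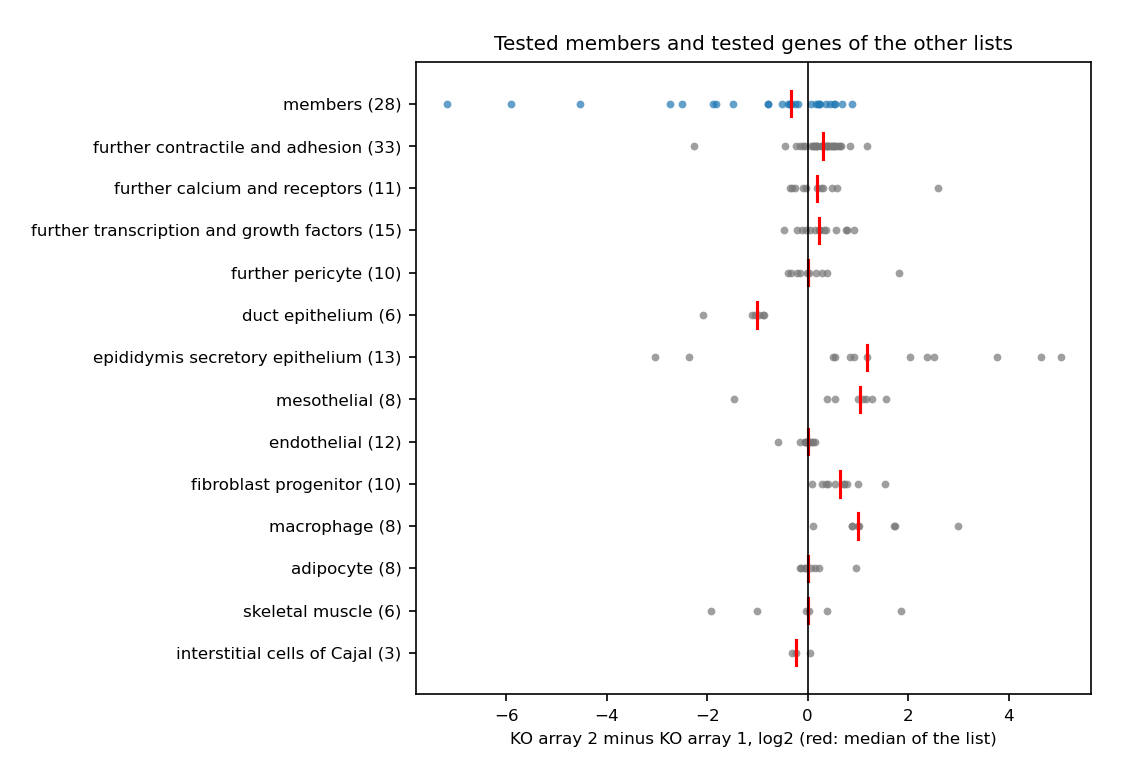
Log2 difference between the KO arrays (array 2 minus array 1, horizontal axis) for each tested gene of the members and of the other lists with at least 3 tested genes, 1 point per gene, with a red mark at the median of each list. The members reach the lowest values, and all 6 duct epithelium genes lie below 0. The endothelial genes lie near 0, with Kdr furthest from it at −0.58, and the macrophage genes lie above 0.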

How the data were processed

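RNA of epididymal fat was measured on 4 arrays. The authors deposited 1 linear intensity per probe set and array, and the submitters' processing notes name RMA and R 2.15.0. The genome build is not given in the sources used here. Log2 was taken with no further normalization. The tests had been planned for log2 values. Of 35556 probe sets, 21218 had 1 symbol, 1881 several and 12457 none listed. The brightest single-symbol probe set stood for a gene, giving 18820 genes, and the 11292 at or above the 40th percentile of mean level (5.45) were tested.

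Genotype was tested with limma 3.58.1 in R 4.3.3 (group means, eBayes without trend, two-sided, Benjamini-Hochberg over all tested genes, threshold 0.05), with 1 residual and 4.62 prior degrees of freedom. Other comparisons are sizes, at 1.5-fold (0.585 on the log2 scale). Groups came from the sample titles. The number of arrays limits the precision.

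All members are named. From other lists the 2 highest and 2 lowest tested genes by the difference between the KO arrays were named, with Srf added after its values were seen. Of 191 other list genes, 176 had a value. Members and lists were chosen with earlier results of these data known. Fold thresholds, filters, probe set averaging, centring, quantile normalization and leaving out a KO array were tried. The fit was tested on simulated data.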

Additional observations from a re-analysis of the deposited data

How the results depend on the processing

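No member passed limma's adjusted p of 0.05 for genotype in any setting run. The genes called over the whole table were 5, and 0 without the filter, 4 with the filter at the 20th percentile, 3 with probe sets averaged, 6 with arrays centred on the median and 3 after quantile normalization. Leaving out a KO array leaves no residual degrees of freedom, so no test was made. Without replicate 1 or 2 of the KO group, members at least 1.5-fold lower than wild type low-fat ranged from 0 (without KO array 2) to 7 (without KO array 1), members higher from 2 to 11, and their median from −0.07 to 0.27.

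At 2-fold in place of 1.5-fold, 0 members were higher on both KO arrays, 3 were lower and 0 higher on the high-fat array, and 0 were higher on KO array 2 than on KO array 1. At the smaller fold threshold tried, 8 were higher on the high-fat array and 6 on KO array 2 against KO array 1. Members higher on KO array 2 than on KO array 1 (Synpo2 and Pdgfrb) numbered 1, Synpo2, after centring and 1 after quantile normalization, where those lower numbered 11 and 10. The genotype difference changed sign for Smtn (0.0967 centred, 0.0401 quantile), Notch3 (0.0015 centred) and Mcam (0.0398 centred). Between the KO arrays, centring turned Mylk to −0.13 and Rgs5 to −0.03, and averaging its probe sets took Actn1 to 0.06. Folds of genes under the array median were taken as lower bounds, an assumption, since no detection limit was measured. No paired analysis was possible because only the KO group has more than 1 array.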
